A study of Mus musculus with 401 samples.

Results

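Single oocytes of young and old mice were compared in the first of 2 sets of libraries in the series. The libraries used were the 32 whose count columns begin with Young or Old and end in oocyte, 16 of each age, out of 401 samples in all. Every mouse was a B6D2F1 female (C57BL/6 x DBA/2) with free access to food, 2 months old in the young group and 14 months old in the old group. Females of either age had first been given CARD HyperOva or equine chorionic gonadotropin to bring many follicles to full growth, and which agent each mouse received is not given in the sources used here. Complexes dissected from fully grown follicles were kept in medium with IBMX, which holds the oocyte in meiotic arrest. An oocyte with an intact nucleus (germinal vesicle stage) was freed by pipetting from the pool of its own cumulus cells, lysed alone and profiled by RamDA-seq, which copies total RNA along the full length of transcripts, with or without a poly(A) tail. The labels name 4 mice or pairs of mice, Young1 with 4 oocytes, Young2 with 12, Old1_2 with 11 and Old3 with 5, and Old1_2 joins a first and a second old mouse. Tests took the oocyte as the unit, so the p-values measure the spread between oocytes that came from few mice. Total counts ran from 559305 to 2843602 per young oocyte (median 2209914) and from 1192652 to 2650919 per old oocyte (median 2293313). The reads carry no molecular identifiers, so intervals and floors cover counting error only.

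The fully grown oocyte rests in the first meiotic prophase, its chromosomes held together by cohesin that was loaded before birth. It is nearly silent in transcription and lives on stored messenger RNA, which is translated or destroyed as meiosis resumes and the embryo begins. Cumulus cells, a kind of granulosa cell, reach the oocyte surface through the zona pellucida and are joined to it by gap junctions, and granulosa cells that luteinize after the ovulatory signal turn to making progesterone. A library of a single oocyte can therefore hold RNA of attached cumulus cells, and in such a library more RNA from cells of a type and more RNA per cell cannot be told apart.

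The labelled cell type was checked against oocyte genes. Gdf9, a growth factor that oocytes secrete to the cumulus cells around them (ENSMUSG00000018238, chromosome 11, 53431023 to 53437904 on the GRCm38 build, as are all positions given here), was the most abundant of 25 oocyte marker genes. It stood at 2328 to 5630.2 CPM (median 4896) in young oocytes and 1065 to 5843 CPM (median 3859) in old ones, where CPM is TMM-normalised and scaled per 1e6 counts, against a mean of 3.06 CPM in the cumulus libraries of the same complexes. The 2 ages overlapped, with 4 of 16 old oocytes under the lowest young one, and the difference missed the threshold (log2 -0.32 ± 0.20, edgeR adjusted p = 0.312). Per length, its mean was 2169 RPKM in young and 1818 RPKM in old oocytes. The 3 markers of fully grown oocytes that were fixed for this check were not called either. Dppa3, a maternal protector of DNA methylation, had a log2 difference of -0.15 ± 0.19 (SE), Pou5f1, a pluripotency factor, one of -0.24 ± 0.12, and Nfya, a CCAAT box factor, one of -0.31 ± 0.13, with edgeR adjusted p of 0.629, 0.182 and 0.121. Of these, 10 of 16 old oocytes lay under the young median for Dppa3, whose reads were mostly shared with other copies of the gene, so its value is uncertain. Summed over the 25 oocyte genes, the share of counts was 3.24% ± 0.320 (SD, n = 16) in young and 2.69% ± 0.813 (SD, n = 16) in old oocytes (two-sided permutation test, p = 0.0180, adjusted over 6 library measures 0.108). With the 4 mouse labels as units the exact permutation test gave 0.667, and without Old1_2 the difference went from -0.549 to -0.0262 percentage points.

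Counts on cumulus marker genes were found in every oocyte library, in amounts that differed between mouse labels. The 25 cumulus marker genes, led by the gap junction protein Gja1, summed to 0.0963% ± 0.0887 (SD, n = 16) of counts in young and 0.194% ± 0.178 (SD, n = 16) in old oocytes, against a mean of 2.40% in the cumulus libraries. The difference of 0.0975 percentage points had p = 0.0447 over oocytes (two-sided permutation test) and 0.134 after adjustment over the 6 measures, and with the 4 mouse labels as units the exact permutation test gave 0.667. By mouse label, the median share was 0.0606% in Young1, 0.0525% in Young2, 0.192% in Old1_2 and 0.111% in Old3, so the high shares in old oocytes were mainly those of Old1_2. The highest value was 0.753% in oocyte 034 of Old1_2 (95% Wilson interval 0.741 to 0.765), or 31.4% of the mean of cumulus libraries, followed by oocyte 041 of the same label with 0.445% (0.433 to 0.457) and oocyte 045 of Young2 with 0.334% (0.319 to 0.349). Without Old1_2 the difference between ages was 0.00643 percentage points. Every young oocyte had a count in at least 16 of the 25 genes (median 20), as did every old one (median 23), and no member was at 0 in all young oocytes. The lowest shares were 0.0378% in young and 0.0425% in old oocytes, and how much of this the oocyte's own expression of these genes makes up was not tested. A narrower choice of 13 of the markers summed to medians of 0.0190% in young and 0.0660% in old oocytes, with a lowest value of 0.00782% in an oocyte of Old3. Gja1 itself (ENSMUSG00000050953, chromosome 10, 56377330 to 56402513) ranged over 9.95 to 794 CPM (median 60.2) in young and 3.71 to 2997 CPM (median 327) in old oocytes, and its difference was not called (log2 1.42 ± 0.63, edgeR adjusted p = 0.140). Markers of other cells stood much lower. Theca and stroma genes summed to a median of 4.2e-04% of counts in young and 0.00114% in old oocytes, immune and blood genes to 0.00339% and 0.00332%, and endothelial genes to 0.00996% and 0.00952%. In young oocytes 4 of 12 theca and stroma, 7 of 15 immune and blood and 1 of 8 endothelial genes were at 0 throughout.

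Mitochondrially encoded transcripts also differed between libraries. Their share was 0.976% ± 1.25 (SD, n = 16) in young and 1.49% ± 1.57 (SD, n = 16) in old oocytes (two-sided permutation test, p = 0.346, adjusted 0.519). It passed 2% in 4 libraries, oocytes 041 (6.75%, Wilson interval 6.71 to 6.80) and 036 (3.31%, 3.28 to 3.33) of Old1_2 and 045 (5.31%, 5.26 to 5.37) and 048 (2.38%, 2.36 to 2.40) of Young2. By mouse label the median was 1.43% in Old1_2, 0.597% in Young1, 0.529% in Young2 and 0.636% in Old3. Without the 4 libraries, an alternative chosen after seeing the data, the difference between ages was 0.423 percentage points, and without Old1_2 it was -0.320. The 4 libraries were removed on this same share, so the value without them is not read as a test. After all libraries were thinned to 558937 counts, 15287 ± 524 genes (SD, n = 16) were detected in young and 15665 ± 606 (SD, n = 16) in old oocytes (p = 0.0669, adjusted 0.134), and the 50 most abundant genes took 12.9% and 12.6% of counts (p = 0.664, adjusted 0.741). Total counts did not separate the ages (p = 0.741, also after adjustment).

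**Figure D1:**
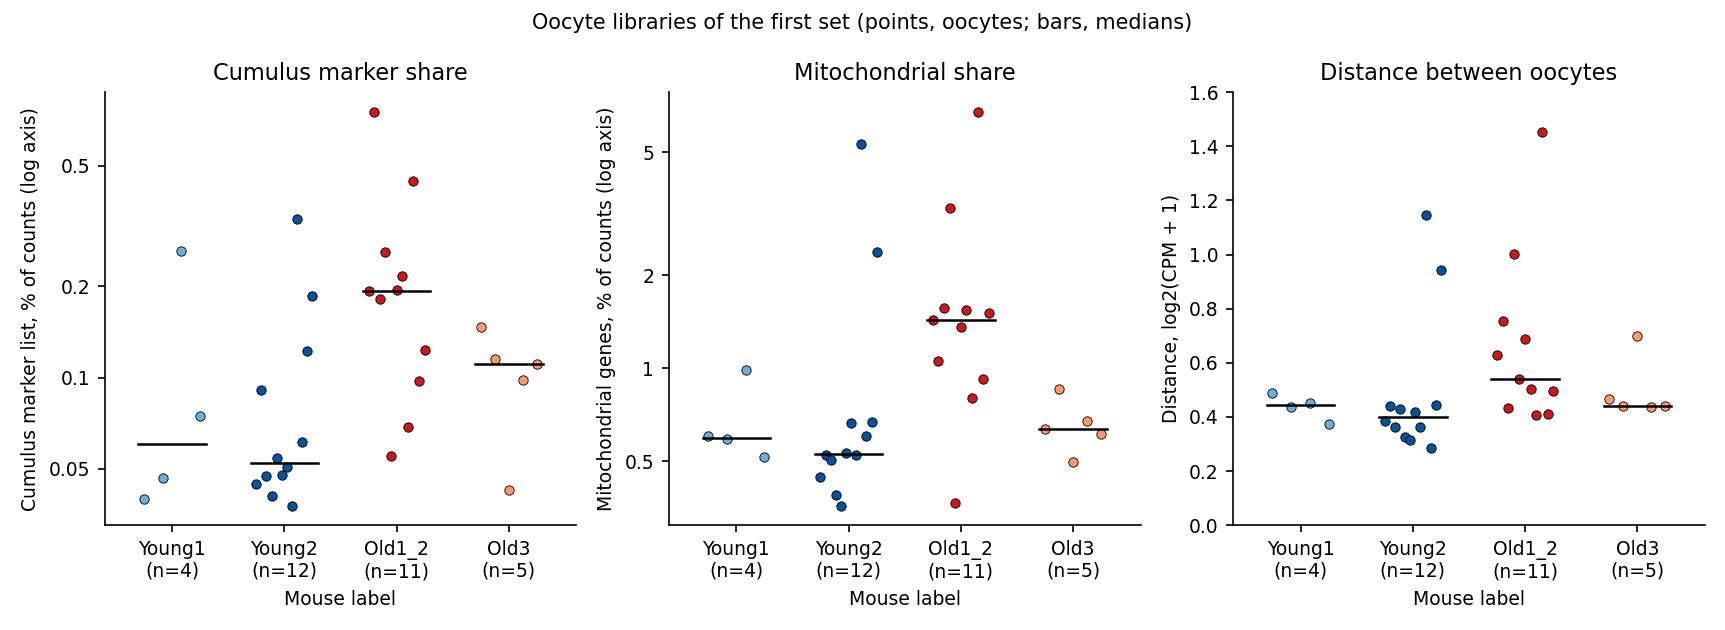
Share of counts on 25 cumulus marker genes (percent, log axis), share on mitochondrially encoded genes (percent, log axis) and distance of each oocyte to the mean of the other oocytes of its age (root mean square difference of log2(CPM + 1)), by mouse label. Points are oocytes and bars are medians. The highest cumulus share, 0.753%, and the highest mitochondrial share, 6.75%, both belong to Old1_2, where the median cumulus share was 0.192%.

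Old oocytes lay farther from each other than young ones on average, with broad overlap. Over 9198 genes with a mean of at least 10 CPM, the distance of an oocyte to the mean of the others of its age was 0.287 to 1.14 (median 0.424) on the log2(CPM + 1) scale in young and 0.406 to 1.45 (median 0.4996) in old oocytes. The means were 0.475 ± 0.232 (SD, n = 16) and 0.612 ± 0.277 (SD, n = 16), and the difference of 0.137 was within what permuting these distances between oocytes gave (two-sided permutation test, p = 0.143). The distances were measured once and not recomputed in each permutation, and those of one age depend on each other through its mean. By label, the mean of this distance was 0.665 in Old1_2, 0.497 in Old3, 0.438 in Young1 and 0.488 in Young2, and the exact test over these 4 means gave 0.333, the smallest p it can give. Measured instead to the other oocytes of the same label, the mean distance was 0.682 in Old1_2, 0.420 in Old3, 0.444 in Young1 and 0.504 in Young2, so that Old3 was then the lowest. Without Old1_2 the difference turned to -0.0547 (p = 0.795), without Old3 it was 0.207 (p = 0.0436), and without the 4 libraries over 2% mitochondrial counts it was 0.137. Those 4 libraries also had the largest distances of all oocytes (0.943 to 1.45), so the value without them depends on the distance itself and is not read as a test. Gene by gene, limma called 4 of 9198 genes (0.0435%) as differing in spread, each wider in old oocytes, with 778 at an unadjusted p under 0.05. They were Zar1, Ldhb, Gm5514 and Fam220a, each at a limma adjusted p of 0.0496. Ldhb, a lactate dehydrogenase subunit (ENSMUSG00000030246, chromosome 6, 142490249 to 142507957), with part of its reads shared, showed it most plainly, at 2129.6 to 3184 CPM (median 2645) in young and 287 to 3376 CPM (median 1749.8) in old oocytes. The old range enclosed the young one, with 9 of 16 old oocytes below the lowest young oocyte and 2 above the highest. Its level was not called (log2 -0.67 ± 0.29, edgeR adjusted p = 0.136), and nor was that of its neighbour in this ranking Gm5514, a processed pseudogene (-0.54 ± 0.29), whereas Fam220a, whose reads are shared with other loci, fell (-0.50 ± 0.15). Lman2, a cargo receptor of the secretory pathway with the next lowest p, did not pass for spread (limma adjusted p = 0.112) but its level fell (log2 -0.46 ± 0.14, edgeR adjusted p = 0.0430), with 10 old oocytes under the lowest young one. None of the genes was called for spread with any label left out, while 241 were without the 4 libraries of high mitochondrial share. As these 4 were the most distant oocytes, the 241 depend on spread itself and are not read as a test.

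Across genes, edgeR called 1707 of 23100 tested (7.39%) at a false discovery rate of 5%, 1016 higher in old oocytes (4.40%) and 691 lower (2.99%), with 6272 at an unadjusted p under 0.05. DESeq2 called 2808, of which 1398 were shared. Genes that rose had a lower median level than those that fell. The 1016 had a median mean level of 10.2 CPM and a median log2 difference of 1.004, and 510 of them changed by more than 1 on the log2 scale. The 691 had a median level of 43.7 CPM and a median of -0.73, and 143 changed by more than 1. Among the 9198 genes with a mean of at least 10 CPM, 512 rose and 551 fell (11.6% called), and the median of all of them was 0.00, whereas over all genes tested it was 0.11. Of the genes called, 748 that rose and 595 that fell were protein coding.

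How far the calls rested on single mice was measured with a fit of the 4 labels. Old1_2 differed from Young2 in 2960 genes (12.8%, 1719 higher and 1241 lower) and from Young1 in 1250 (5.41%, 489 higher and 761 lower). Old3 differed from Young1 in 0 and from Young2 in 0 genes by edgeR, with 1177 and 946 at an unadjusted p under 0.05. These contrasts set 5 oocytes against 4 and 12, so 0 calls is not read as no change in Old3. Labels of one age were not separated by a call either, with 0 genes between Old3 and Old1_2 (3795 at an unadjusted p under 0.05) and 0 between Young2 and Young1 (914). Median log2 differences of the 1016 genes called higher, which were chosen on these same oocytes, were 1.46 and 1.13 for Old1_2 against Young1 and Young2, but 0.51 and 0.34 for Old3, and those of the 691 were -1.08 and -0.87, and -0.52 and -0.31. In Old3 against Young1 and Young2, 881 and 920 of the 1016 and 687 and 688 of the 691 kept their sign. Without Old1_2, edgeR called 0 genes (1448 at an unadjusted p under 0.05), without Young2 0 (3483), without Young1 6 and without Old3 4141. Leaving out Old1_2 left 5 old oocytes and leaving out Young2 left 4 young ones, so a lost call is not read as a lost difference. Counts summed per label gave 0 calls (1950 at an unadjusted p under 0.05), and limma-voom with the label as a random effect gave 238, 65 higher and 173 lower, of which 232 were among the 1707.

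The direction of calls differed with where a gene is expressed. Genes were sorted by their mean level in cumulus against oocyte libraries of the first set. The 196 cumulus-enriched genes (log2 ratio of at least 5 and at least 10 CPM in cumulus cells) had a median log2 difference of 0.70 and 150 lay above 0. Called higher were 4 of them (2.04%, all genes 4.40%) and lower 3 (1.53%, all genes 2.99%). The oocyte side of the ratio is the mean of these same 32 libraries, so cumulus RNA held in them lowers the ratio. Genes of cumulus cells that rose can therefore lie in the class between, and the few calls among the 196 are not read as a result about cumulus genes. The 12026 genes more abundant in oocytes had a median of 0.00, with 342 higher (2.84%) and 550 lower (4.57%). The 10878 between had a median of 0.27, with 670 higher (6.16%) and 138 lower (1.27%). In either direction 3.57%, 7.42% and 7.43% of these classes were called, in this order, beside 7.39% of all genes. Thus most of the genes that fell were more abundant in oocyte than in cumulus libraries. With the log2 cumulus share of each library as a covariate, edgeR called 34 genes, 13 higher and 21 lower, 20 of them among the 1707, and the median of the cumulus-enriched genes, some of which are in that share, turned to -0.43. The mitochondrial share as a covariate left 41 calls, and both shares together 265, of which 197 were among the 1707. In 2 alternatives chosen after seeing the data, taking out the 6 libraries with over 0.2% cumulus markers left 664 calls, 313 higher and 351 lower, while taking out the 4 with over 2% mitochondrial counts gave 4026, 1941 higher and 2085 lower. Neither share passed for a difference between ages after adjustment, and without Old1_2 the cumulus difference shrank and the mitochondrial one turned, so the parts of the shares, of age and of that label in the calls cannot be told apart.

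**Figure D2:**
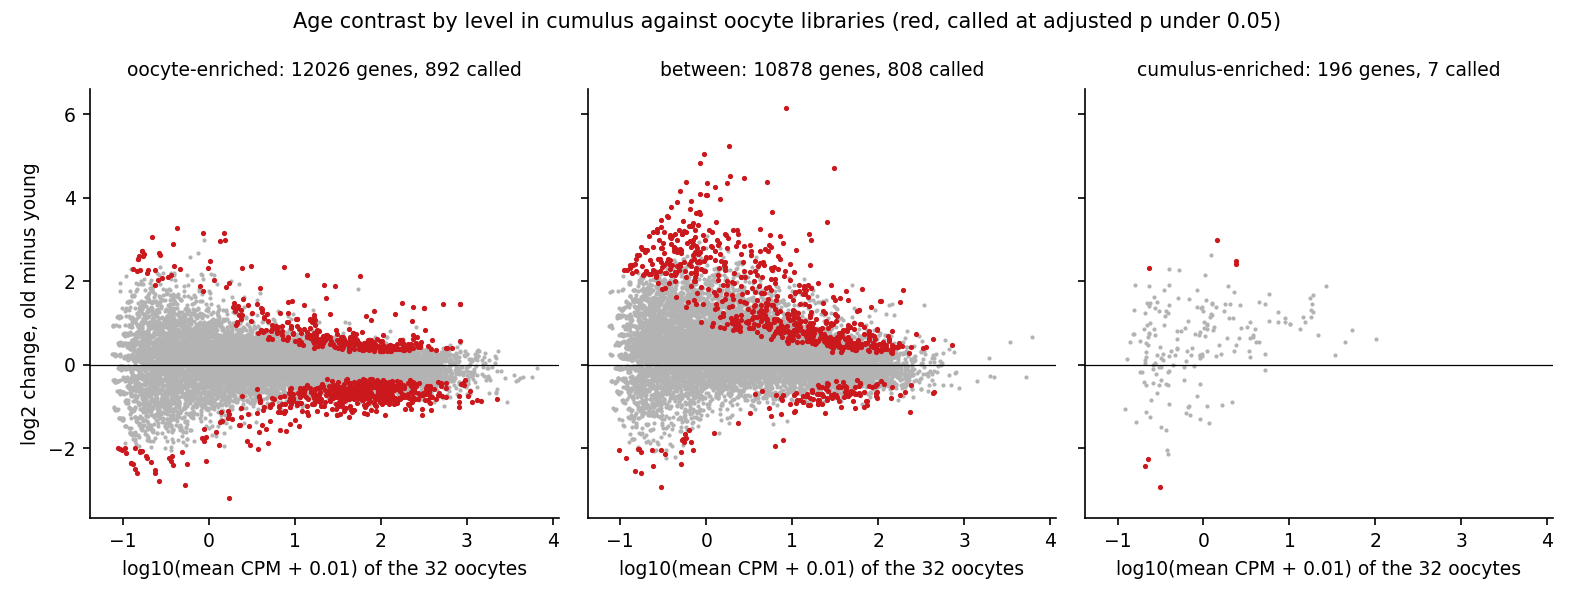
Log2 difference between old and young oocytes (vertical axis) against mean level (CPM, log axis) for the genes tested, in panels for 196 cumulus-enriched genes, 10878 genes between and 12026 genes more abundant in oocytes. Each point is a gene and called genes are coloured. In the oocyte-enriched panel 550 genes fell and 342 rose, and in the panel between 138 fell and 670 rose. The shares called were 7.42% and 7.43%, beside 7.39% of all genes.

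Of 10 genes of luteinized granulosa cells 9 rose, where 4.40% of all genes did. The list median was 3.65, against 0.11 over all genes, but several members were at or close to 0 in young oocytes and passed the filter on low counts through old ones, so that their folds, and the median with them, are uncertain. The count of 9 includes these members, so it is not read as a test against the share of all genes. Cyp11a1, the enzyme that makes pregnenolone from cholesterol (ENSMUSG00000032323, chromosome 9, 58006411 to 58027023), stood at 0.494 to 5.90 CPM (median 1.497) in young and 0.696 to 376 CPM (median 8.10) in old oocytes (log2 4.71 ± 0.76, edgeR adjusted p = 0.00428). The ages overlapped at the low end, but 9 of 16 old oocytes exceeded the highest young one, and 13 exceeded the young median. Of the 9, 8 were of Old1_2 and 1 of Old3, and the mean was 84.9 CPM in Old1_2 and 2.30 CPM in Old3, next to 1.94 and 2.17 CPM in Young1 and Young2. Part of its reads were shared, and another gene overlaps it, so its level is uncertain. Hsd3b1, which converts pregnenolone to progesterone (ENSMUSG00000027871, chromosome 3, 98852194 to 98859794), ranged over 0 to 13.6 CPM (median 2.33) in young and 0.464 to 134 CPM (median 8.07) in old oocytes (log2 3.13 ± 0.62, edgeR adjusted p = 0.0129, 13 old oocytes above the young median). Sfrp4, a secreted Wnt antagonist (ENSMUSG00000021319, chromosome 13, 19623104 to 19632994), had a count in 3 of 16 young and 13 of 16 old oocytes, with a highest value of 1.29 CPM in young and a median of 2.67 and a highest of 191 CPM in old. Since young oocytes held at most 3 counts of it, its fitted log2 difference of 6.14 ± 1.02 (edgeR adjusted p = 0.00428) depends on the prior count of the fit. Lhcgr, the receptor for luteinizing hormone (ENSMUSG00000024107, chromosome 17, 88716481 to 88791990), was detected in 5 young and 11 old oocytes, at no more than 1.88 CPM in young and up to 104 CPM in old (log2 4.39 ± 0.93, edgeR adjusted p = 0.0153). The serine protease gene Htra3 (fitted log2 4.06 ± 0.73, at most 1 count in a young oocyte), Star, which carries cholesterol into mitochondria, Akr1c18, which breaks progesterone down, the prostaglandin receptor Ptgfr and the lipoprotein receptor Scarb1 were the others that rose, the last 4 at Star (3.66), Akr1c18 (3.65), Ptgfr (3.24) and Scarb1 (0.64), of which Akr1c18 was close to 0 in young oocytes. Abcb1b, the most abundant member, was not called. With the cumulus share as a covariate, which counts Cyp11a1 and Hsd3b1 among its markers, 0 of the 10 were called by edgeR and the median was 1.75, and without Old1_2 it was 0.16.

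**Figure D3:**
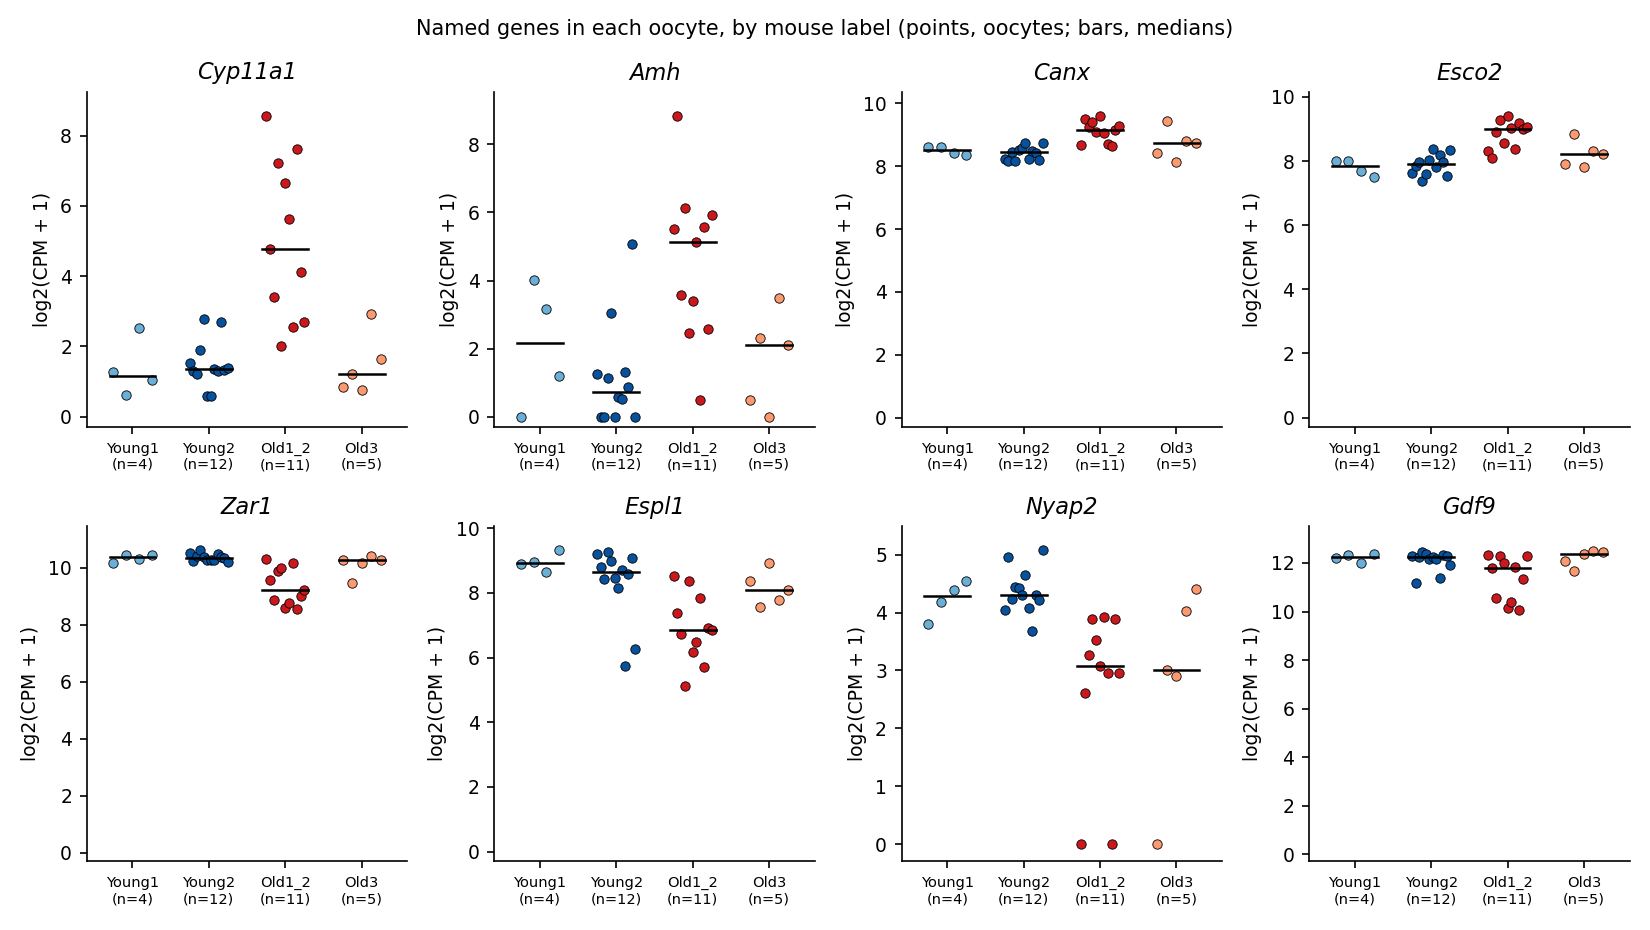
Level of 8 genes in each oocyte (log2(CPM + 1), vertical axis) by mouse label, points for oocytes and bars for medians. Cyp11a1 spans 0.696 to 376 CPM in old oocytes with means of 84.9 CPM in Old1_2 and 2.30 CPM in Old3, while Nyap2 is low in both old labels, with means of 7.91 and 9.80 CPM.

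Of 25 cumulus and granulosa genes 10 rose (40%) and 0 fell, while over all genes 4.40% rose and 7.39% were called. All 25 had a positive difference, with a median of 1.19 beside 0.11 over all genes. Amh, the hormone by which granulosa cells restrain follicle recruitment (ENSMUSG00000035262, chromosome 10, 80805243 to 80807648), ranged over 0 to 32.7 CPM (median 1.03) in young and 0 to 452 CPM (median 9.84) in old oocytes (log2 3.42 ± 0.82, edgeR adjusted p = 0.0223). It was at 0 in 5 of 16 young oocytes and 1 old one, and 6 old oocytes passed the highest young one. Besides Amh, Cyp11a1 and Hsd3b1, calls fell to the creatine synthesis gene Gatm (fitted 3.65 ± 0.80, with at most 1 count in any young oocyte), the Amh receptor Amhr2 (2.41), the keratin Krt18 (3.36), aromatase Cyp19a1 (0.90) and the transcription factors Nr5a2 (0.70), Esr2 (0.28) and Wt1 (2.74). The count of 10 includes Gatm, which was close to 0 in young oocytes, so it is not read as a test against the share of all genes. With Old1_2 left out the list median was 0.24. The cumulus share is the sum of these same genes, so the fit with it as a covariate is not read for this list. In the cumulus expansion list, 6 of 11 genes passed the filter on low counts and Lhcgr was called, with a list median of 0.31. Theca and stroma genes had 7 of 12 tested, a median of 1.21 and 1 call (without Old1_2 the median was -0.29), the collagen gene Col1a2, which was at 0 in all young and all Old3 oocytes and under the floor of 3 counts on average, so that no fold is given. Among immune and blood genes 0 of 6 tested were called (median -0.12), with H2-Aa at -0.23 and Csf1r, which overlaps another gene, at -0.37. Endothelial genes gave 0 of 7 (median -0.42), with Tek at -0.46 and Pecam1 at 0.10. DESeq2 was not counted per list.

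Among genes with a mean of at least 10 CPM, the largest rises include genes that reach this mean through old oocytes alone, such as Cyp11a1, Amh and Hsd3b1, with young medians of 1.497, 1.03 and 2.33 CPM. After these 3 came the myosin motor gene Myo5c (2.99 ± 0.68), the acyl-CoA synthetase gene Acsbg1 (2.74 ± 0.71), the kinase gene Alpk3 (2.40 ± 0.51), the sulfotransferase gene Chst8 (2.23 ± 0.68), the exchange factor gene Fgd3 (2.15 ± 0.61), Il6 and the Golgi phosphatase gene Impad1 (1.97 ± 0.58), at edgeR adjusted p of 0.0153 to 0.0447. Most of these were more abundant in cumulus libraries, by log2 ratios of 2.93 to 3.95 for Myo5c, Alpk3, Acsbg1, Chst8 and Impad1. Fgd3 and Il6 were more abundant in oocyte libraries, and Il6, a cytokine (ENSMUSG00000025746, chromosome 5, 30013114 to 30019981), by the more. It stood at 1.83 to 129 CPM (median 7.77) in young and 7.03 to 843 CPM (median 28.2) in old oocytes (log2 2.12 ± 0.66, edgeR adjusted p = 0.0447), 13 old oocytes lay above the young median, and only the top one lay above the highest young oocyte. The apolipoprotein gene Apob (1.92 ± 0.59) and Cenpb, whose protein binds centromeric repeats (1.89 ± 0.51), followed among genes that were more abundant in oocyte than in cumulus libraries. Means of Apob were 45.4 CPM in Old1_2 and 8.57 CPM in Old3, and those of Cenpb 59.7 and 15.04 CPM. Without Old1_2 the differences of Amh, Hsd3b1, Fgd3, Impad1 and Apob turned below 0 and that of Cyp11a1 shrank to 0.13.

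Structured noncoding RNAs included some of the abundant rises. Of 14 abundant noncoding RNAs, 5 rose (35.7%, against 4.40% of all genes) and the median was 1.38 (all genes 0.11). Rn7sk, which holds the elongation factor P-TEFb inactive, stood at 5.21 to 306 CPM (median 75.0) in young and 110.1 to 1089 CPM (median 188) in old oocytes (log2 1.51 ± 0.35, edgeR adjusted p = 0.0194). Every old oocyte lay above the young median, yet only 2 lay above the highest young oocyte. Rn7s1 and Rn7s2, RNAs of the signal recognition particle, rose by 1.45 each with edgeR adjusted p of 0.0324 and 0.0326, as did their relatives Gm26461 (1.48) and Gm24514 (1.604). The RNA components of RNase P and RNase MRP, Rpph1 and Rmrp, rose by 2.54 and 2.72 from a few CPM. These are uncertain values, because the Rn7sk, Rn7s1 and Rn7s2 counts were almost all shared with copies elsewhere and because Rpph1 and Rmrp lie beside or within other genes. Rn7s1 and Rn7s2 can carry one signal, so the count of 5 is not read as a test against the share of all genes. Oocyte 041 of Old1_2 stood apart, with 8349 CPM of Rn7s1 (plain CPM) where the old median was 754 CPM and the next highest old value 1737 CPM. Without the 4 libraries of high mitochondrial share, of which it is one, the list median was 1.01. With the cumulus share as a covariate 0 of the 14 were called by edgeR and the median was 0.13, and without Old1_2 it was 0.46.

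Ribosomal protein and histone messages had mostly positive differences. Of 83 cytoplasmic ribosomal protein genes tested, 29 rose (34.9%) and 0 fell, and 81 had a positive difference with a median of 0.67. Over all genes 4.40% rose, 58.7% had a positive difference and the median was 0.11. Rps15a, Rps27l and Rps3 rose by 0.91, 1.0395 and 0.90, though many ribosomal protein genes share reads with pseudogenes. Of 69 core histone genes, 30 rose (43.5%) and 0 fell, with 68 positive and a median of 1.17. Hist2h2ac, a replication-dependent message without a poly(A) tail, went from a median of 2.37 CPM to 4.99 CPM (log2 1.16 ± 0.27, edgeR adjusted p = 0.0204, 5 old oocytes above the highest young one), and Hist1h2bf, Hist1h2ag and Hist2h2aa2 rose by 1.43, 1.92 and 1.09. Near-identical histone genes share their reads, so single members are uncertain and the count of 30 is not read as a test against the share of all genes. The share of counts on ribosomal protein genes was above 1% in 5 libraries, oocytes 041 (1.97%, Wilson interval 1.94 to 1.99), 036 (1.76%, Wilson interval 1.74 to 1.77) and 034 (1.12%, Wilson interval 1.11 to 1.14) of Old1_2 and 045 (1.36%, Wilson interval 1.33 to 1.39) and 048 (1.02%, Wilson interval 1.004 to 1.03) of Young2, and at most 0.858% in the others. All of these but 034 also had a mitochondrial share above 2%. Without those 4, 64 ribosomal protein genes were called with a median of 0.57, and 40 histone genes with a median of 0.95, where 17.8% of all genes were called. The part of these libraries in the difference was not tested further. Without Old1_2 the family medians were 0.05 and 0.37, and with the cumulus share as a covariate 0.15 and 0.44 with 0 calls by edgeR in either.

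Of the mitochondrially encoded genes none was called by edgeR over all oocytes. The 13 messages of the mitochondrial genome all had a positive difference (median 0.54) and 0 were called by edgeR, mt-Co1, a cytochrome c oxidase subunit, at 0.31 ± 0.26 and mt-Nd1, a complex I subunit, at 0.64 ± 0.31. Both ribosomal RNAs, mt-Rnr1 (0.54 ± 0.29) and mt-Rnr2 (0.68 ± 0.42), were not called. The median of the 13 messages turned to -0.30 without Old1_2 and to -0.06 with the cumulus share as a covariate, and without the 4 libraries of high mitochondrial share 6 of them were called. For the 2 ribosomal RNAs the medians were -0.42 and -0.14, and both were called without the 4 libraries. Those libraries were removed on the mitochondrial share itself, and 17.8% of all genes were called without them, so these calls are not read as a test. In the nucleus, 3 of 76 respiratory chain genes rose (median 0.29), namely Atp5c1 (0.52), Cox5b (0.62) and Cox7b (0.84). Of 77 mitochondrial ribosomal proteins, 5 rose, led by Mrps16 (0.63), Mrps31 (0.73), Mrps35 (0.46) and Mrpl49 (0.69), and 1 fell (list median 0.18). The shares called in these 2 nuclear lists, 3.95% and 7.79%, stood beside 7.39% of all genes, and their medians were 0.05 and 0.02 without Old1_2 and -0.02 and 0.01 with the cumulus share as a covariate.

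Genes of chromosome cohesion and segregation were called in shares of 25% in the cohesin list, 14.3% in the spindle checkpoint list, 18.9% among kinetochore and centromere genes and 5.88% among kinesins, beside 7.39% of all genes and 11.6% of those with a mean of at least 10 CPM. In the cohesin list 5 of 24 rose and 1 fell (median 0.28). Esco2, an acetyltransferase that makes cohesin hold sister chromatids (ENSMUSG00000022034, chromosome 14, 65819038 to 65833994), stood at 164 to 333 CPM (median 239) in young and 222 to 676 CPM (median 417) in old oocytes (log2 0.83 ± 0.15, edgeR adjusted p = 0.00620). Although the ranges overlapped, 10 of 16 old oocytes lay above the highest young oocyte and 14 above the young median, and the means of both old labels, 476 and 306 CPM, were above those of Young1 and Young2, 224 and 241 CPM. The cumulus libraries held a mean of 42.7 CPM of it. The related acetyltransferase Esco1, the cohesin subunits Stag2 and Smc1a and the meiotic kleisin Rad21l rose too, by 0.52, 0.52, 0.38 and 1.40. Espl1, the separase that cuts cohesin at anaphase (ENSMUSG00000058290, chromosome 15, 102296266 to 102324357), fell, with 52.0 to 634 CPM (median 429) in young and 33.9 to 482 CPM (median 176) in old oocytes (log2 -1.06 ± 0.30, edgeR adjusted p = 0.0333). Of 16 old oocytes 15 lay under its young median and 2 under the lowest young oocyte. In the spindle checkpoint list 3 of 21 rose, the checkpoint kinase Ttk and the Mad2 proteins Mad2l1 and Mad2l2, by 0.54, 0.44 and 0.39 (list median 0.08). Kinetochore and centromere genes had 7 of 37 higher (median 0.18), among them Spc25 of the Ndc80 complex (0.61 ± 0.15) and the inner kinetochore proteins Cenpu (0.59 ± 0.15) and Cenpq (0.73 ± 0.21). Of 34 kinesins the conventional motor Kif5b rose (0.94 ± 0.27) and its paralog Kif5c fell (-0.76 ± 0.24), with edgeR adjusted p of 0.0326 and 0.0495. With the cumulus share as a covariate the cohesin median was 0.30, but 0 of its genes were called by edgeR, as Esco2 reached an adjusted p of 0.0513 at 0.71. Without Old1_2 the cohesin median was 0.17, and those of the other 3 lists were 0.19, 0.12 and 0.13.

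Messages that control meiotic arrest and the stored mRNA pool changed in both directions. Zar1, which organises stored maternal mRNA (ENSMUSG00000063935, chromosome 5, 72576806 to 72581254), stood at 1145 to 1567 CPM (median 1308) in young and 378 to 1383 CPM (median 858) in old oocytes (log2 -0.63 ± 0.16, edgeR adjusted p = 0.0248). Part of its reads were shared with other loci. Its young values were tight, and 12 of 16 old oocytes lay under the lowest young one. Oosp1, a secreted oocyte protein, rose (0.57 ± 0.18), and Khdc3 of the subcortical maternal complex, which overlaps another gene, fell (-0.49 ± 0.16), so that 1 of 25 oocyte markers rose and 2 fell with a median of -0.24, and 1 of 8 genes of the subcortical complex fell with a median of -0.31. In the list of mRNA storage, translation and decay, 2 of 28 rose and 3 fell (median 0.03), the translational activator Dazl (0.60 ± 0.16) and the cap-binding protein Eif4e (0.51) up, and Zar1, the P-body protein Lsm14b (-0.46 ± 0.12) and the oocyte poly(A)-binding protein Pabpc1l (-0.62 ± 0.19) down. Among 28 genes of the meiotic switch, 2 rose and 4 fell (median -0.13). Wee2, the oocyte kinase that keeps Cdk1 inactive (ENSMUSG00000037159, chromosome 6, 40439088 to 40466813), rose, with 391 to 619 CPM (median 515) in young and 322 to 992 CPM (median 662) in old oocytes (log2 0.41 ± 0.12, edgeR adjusted p = 0.0388, 9 old oocytes above the highest young one and 1 under the lowest). Mastl, which restrains the phosphatase that opposes Cdk1, rose by 0.43. Fzr1, the anaphase-promoting complex activator of prophase arrest, the phosphatase subunit Ppp2r1a, the phosphatase Cdc25b and the kinase Pkmyt1 fell by 0.77, 0.53, 0.67 and 0.72 on the log2 scale. The shares called in these lists were 12% (oocyte markers), 13% (subcortical complex, 1 gene), 17.9% (mRNA storage) and 21.4% (meiotic switch), beside 7.39% of all genes and 11.6% of those with a mean of at least 10 CPM. Without Old1_2 the list medians were 0.00 for oocyte markers, -0.02 for the subcortical complex, 0.06 for mRNA storage and -0.07 for the meiotic switch.

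Chromatin and DNA repair genes had calls in both directions. Of 48 genes of DNA methylation and chromatin modification, 5 rose and 6 fell (22.9% called), with a median of -0.17. Tet3, which oxidises methylated cytosine (ENSMUSG00000034832, chromosome 6, 83362373 to 83459084), was among the most abundant genes that fell, with 377 to 4151 CPM (median 3295) in young and 332 to 3159 CPM (median 1526) in old oocytes (log2 -0.83 ± 0.26, edgeR adjusted p = 0.0426). All 16 old oocytes lay under the young median but 1 under the lowest young oocyte, and an antisense transcript lies over the gene. Also lower were the deacetylase Sirt7 and the corepressor Trim28, with the methyltransferase Kmt2d, the demethylase Kdm4a and the methylation cofactor Dnmt3l, at Sirt7 (-0.60), Trim28 (-0.68), Kmt2d (-1.02), Kdm4a (-0.63) and Dnmt3l (-0.45) on the log2 scale. Higher were the remodelling ATPases Smarca5 and Hells, the demethylase Kdm5b, the deacetylase Hdac2 and the methyltransferase Suv39h1, at Smarca5 (0.54), Hells (0.43), Kdm5b (1.46), Hdac2 (0.47) and Suv39h1 (0.31). Of 61 DNA repair genes 1 rose and 3 fell, the damage sensor Xpc at -0.82 ± 0.21, the uracil glycosylase Ung at -0.35 ± 0.11 and the break response protein Trp53bp1 at -0.51 ± 0.16, while the checkpoint kinase Chek2 rose (1.07 ± 0.33). The list median was -0.07, and 6.56% called stood beside 7.39% of all genes. Without Old1_2 the medians of the chromatin and repair lists turned to 0.01 and 0.05, and with the cumulus share as a covariate they were -0.07 and 0.04.

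Among stress and protein turnover genes the share called was 16% for heat shock and unfolded protein response, 14.8% for antioxidant, 11% for proteasome and 3.12% for autophagy genes, beside 7.39% of all genes. For all genes with a mean of at least 10 CPM it was 11.6%. Of 25 heat shock and unfolded protein response genes 4 rose and 0 fell (median 0.04). Canx, a chaperone of the endoplasmic reticulum (ENSMUSG00000020368, chromosome 11, 50293961 to 50325673), stood at 287 to 426 CPM (median 347) in young and 283 to 772 CPM (median 539) in old oocytes (log2 0.61 ± 0.12, edgeR adjusted p = 0.0129), with 10 old oocytes above the highest young one and 1 under the lowest. The chaperones Hsp90b1 and Dnaja1 and the stress factor Ddit3 rose by 0.48, 0.47 and 0.78, the latter 2 at loci that overlap more abundant genes. Among 27 antioxidant genes the reductase Gsr, thioredoxin Txn1 and heme oxygenase Hmox1 rose by 1.12, 1.042 and 1.48, and the peroxiredoxin Prdx5 fell by 0.52 (list median 0.22). Of 38 proteasome genes Psma3 (0.64), Psmd7 (0.42) and Psmc1 (0.36) rose and Psmd3 fell by 0.40 (median 0.13). In the autophagy list 1 of 32 was called, the initiating kinase Ulk1, which fell by 0.86 (median 0.06). Without Old1_2 these medians were -0.03, -0.04, 0.00 and -0.02 in the order named, while that of all genes went from 0.11 to 0.01. With the cumulus share as a covariate they were -0.08, -0.03, 0.05 and 0.00, and that of all genes was 0.04.

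**Figure D4:**
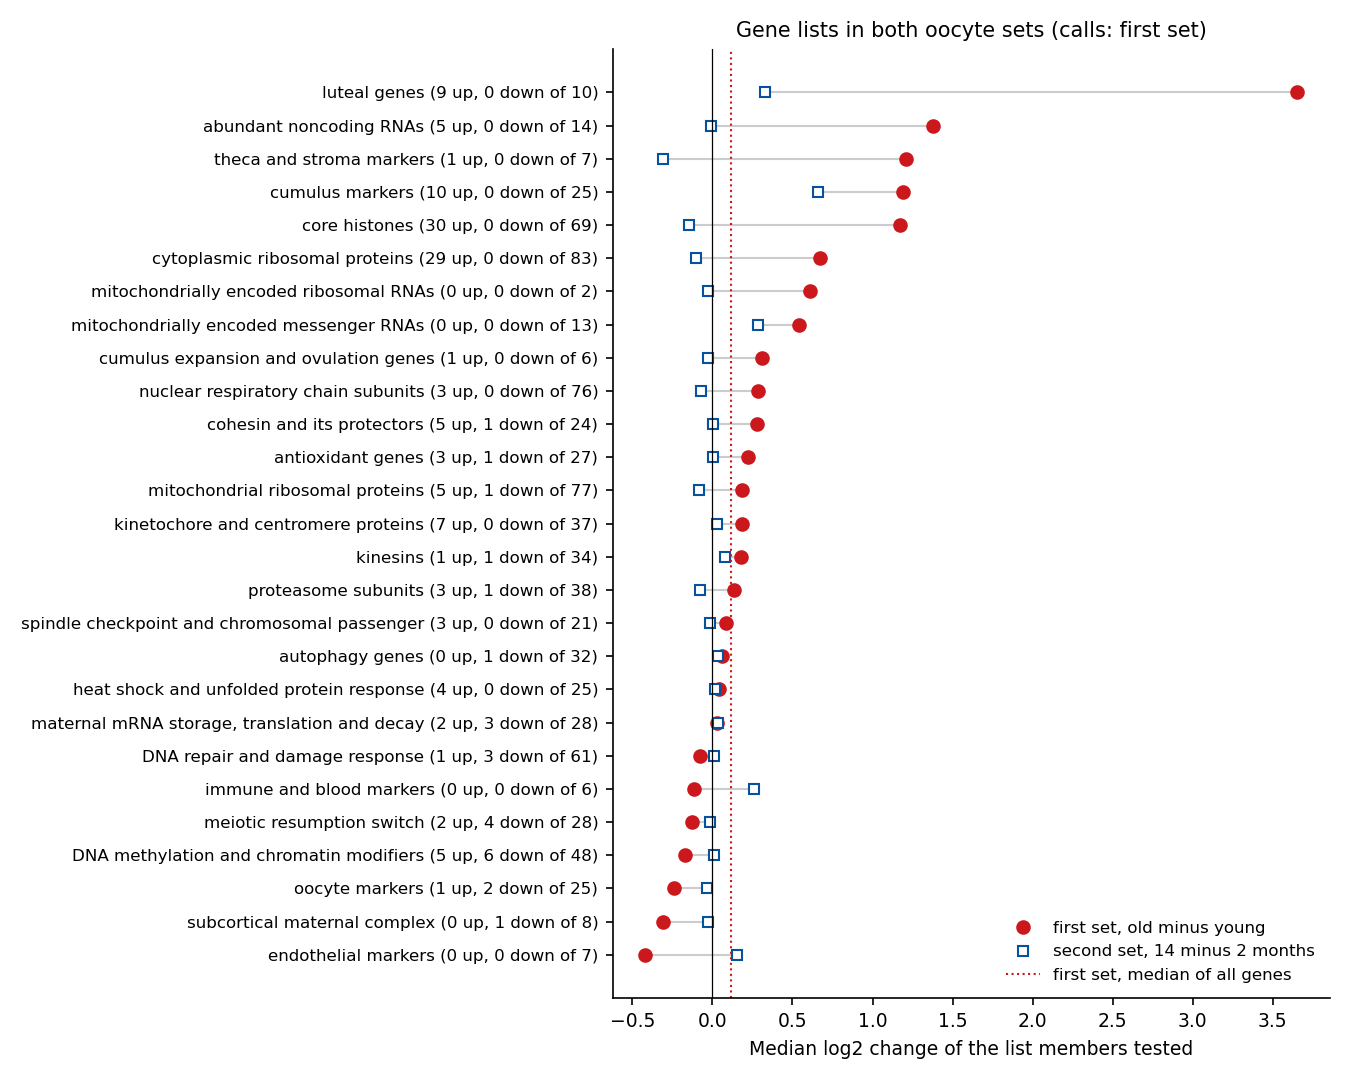
Median log2 difference of 27 gene lists (horizontal axis) between old and young oocytes of the first set and between oocytes at 14 and 2 months of the second set, with the number of genes tested and called. Ribosomal protein genes, 83 tested in each set, stand at 0.67 in the first set and at -0.10 in the second. Other lists can differ in members tested between the sets, and the luteal median rests in part on genes close to 0 in young oocytes. The dotted line marks the median of all genes in the first set, 0.11.

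The genes that fell farthest were all more abundant in oocyte than in cumulus libraries, with lower means in both old labels than in either young one. They were chosen for a fall in these same oocytes, and neither trait was particular to them. Of the 551 genes of at least 10 CPM that fell, 450 were more abundant in oocyte libraries. Of all 691 that fell, 683 had a negative difference in each of the 4 contrasts of an old with a young label. At a mean of at least 10 CPM the 10 largest falls lay between -1.46 (Megf6) and -1.18 (Cyb561a3). Klf16, a zinc finger factor (ENSMUSG00000035397, chromosome 10, 80567124 to 80577321), stood at 16.7 to 93.9 CPM (median 60.1) in young and 9.06 to 44.1 CPM (median 22.5) in old oocytes (log2 -1.24 ± 0.22, edgeR adjusted p = 0.00703). Every old oocyte lay under the young median and 5 under the lowest young oocyte, and it kept its call with the cumulus share as a covariate (-0.94, edgeR adjusted p = 0.0492). The others were the signalling adaptor Socs7 (-1.21 ± 0.27), the tankyrase-binding protein gene Tnks1bp1 (-1.20 ± 0.26), the kinase gene Map3k21 (-1.20 ± 0.28), the protocadherin gene Fat3 (-1.20 ± 0.37), Fam131a (-1.19 ± 0.27), Rab11fip4 (-1.18 ± 0.30), which has antisense partners, and Nyap2. Nyap2, a phosphoinositide 3-kinase adaptor (ENSMUSG00000054976, chromosome 1, 81076950 to 81341764), was the one of the 10 whose ages separated best. It stood at 11.9 to 32.97 CPM (median 18.7) in young and 0 to 20.1 CPM (median 7.24) in old oocytes (log2 -1.21 ± 0.33, edgeR adjusted p = 0.0273), and 11 of 16 old oocytes lay under the lowest young one. Among the most abundant genes that fell, besides Tet3 and Zar1, were the transporter gene Slc45a3, which overlaps another gene, the deubiquitinase gene Usp19 and the kinase gene Pik3cd, at Slc45a3 (-0.86), Usp19 (-0.90) and Pik3cd (-0.76), with a young mean of 1287 CPM or more and edgeR adjusted p of 0.0259 to 0.0378. The most abundant genes that rose, besides Rn7s1, Rn7s2, Wee2 and Oosp1, were the Rab regulator Tbc1d15 (0.39 ± 0.11) and the elongation factor Eef1a1 (0.49 ± 0.13), the reads of which are largely shared with pseudogenes.

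A further age contrast was available in the second set, with 24 oocytes at 2 months and 16 at 14 months. They carry several mouse labels at each age, but the oocyte was again the unit. No fit by mouse label is given for this set. There edgeR called 258 of 22659 genes (1.14%), 150 higher (0.662%) and 108 lower (0.477%) at 14 months, and the median over all genes was 0.00. Called in the same direction in both sets were 20 genes that rose, which is 1.97% of the 1016 and 13.3% of the 150, and 20 that fell, 2.89% of the 691 and 18.5% of the 108, with 1 gene of each direction called the opposite way. Among genes tested in both, 569 of 912 that rose and 515 of 684 that fell had the same sign in the second set. Falls common to both included Nyap2 (second set -1.33 ± 0.17, edgeR adjusted p = 1.8e-06), the cysteine dioxygenase Cdo1 (-0.69 and -0.68 in the first and second set), the GTPase Rac3 (-0.80 and -0.47), the growth factor Csf1 (-0.71 and -0.34), the Rab regulator Tbc1d10a (-0.88 and -0.31) and the readthrough transcript Gm21982 (-0.68 and -0.27). Rises common to both included Hsd3b1 (3.13 and 1.64), the desmosome gene Dsp (1.76 and 0.95), Kif5b (0.94 and 0.36), the mitochondrial cochaperone Dnajc15 (0.87 and 0.41), Tmem184c (0.77 and 0.40) and Ccser1 (0.70 and 0.60). Hsd3b1 and Dsp are abundant in cumulus libraries, where they had means of 189 and 702 CPM, whereas Ccser1 had 0.216 CPM there.

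The age contrasts of the 2 sets differed from each other in 1324 of 25233 genes (5.25%) by the edgeR interaction test. In its oocyte libraries the second set had a mean cumulus marker share of 0.0487% ± 0.0049 (SD, n = 24) at 2 months and 0.0538% ± 0.0058 (SD, n = 16) at 14 months. Its medians, 0.0470% and 0.0535%, were close to the 0.0525% of young oocytes in the first set and under the 0.135% of old ones, and its mitochondrial share was 0.534% and 0.550%. Ribosomal protein genes, of which 29 of 83 rose in the first set, had a median of -0.10 in the second with 0 of 83 called by edgeR, and 53 of 83 differed between the sets. Core histones had a median of -0.15, with 1 of 68 lower and 37 of 70 differing. Of 22 cumulus markers tested in the second set 5 rose, where 0.662% of all genes did (median 0.66, all genes 0.00), and 3 of 25 differed between sets. In the cohesin list 0 of 24 were called in the second set (median 0.01) and 5 of 24 differed, Esco2 with 0.18 ± 0.05 there. Canx rose in both sets, by 0.61 and 0.23, and its differences still differed (interaction 0.39 ± 0.12, edgeR adjusted p = 0.0437). Without Old1_2, 4 genes differed between the sets, and without the 4 libraries of high mitochondrial share 3200 did.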

How the data were processed

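RamDA-seq libraries of single oocytes were taken from the first of 2 sets. For alignment to GRCm38 the authors used HISAT2 2.0.5, and for counts per GENCODE gene featureCounts 1.5.1, keeping multi-mapped reads. Whether counting used strand is not given in the sources used here. The deposited expected count tables hold values that need not be whole (37.3% of nonzero values in the 32 oocytes were not), so they were rounded for the count tests, although the design had assumed plain counts. The authors also deposited RPKM values, used here only to compare levels between genes. The deposited RPKM followed from the counts with a single length per gene, within 1% in 100% of cases. That length was taken from the RPKM values themselves, so the match shows only that the length was constant. Of 41092 genes, 40982 identifiers were found in the later GENCODE release used here for symbols and positions.

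Libraries were grouped by title. The test was the quasi-likelihood F test of edgeR 4.0.16 in R 4.3.3, with TMM, for genes seen in 5 or more of the 32 libraries, with Benjamini-Hochberg adjustment at 0.05. Positive log2 differences mean higher in old oocytes. Spread per gene was tested with limma 3.58.1 on absolute deviations from the group median (log2(CPM + 1), mean of at least 10 CPM), and library measures by permuting oocytes (two-sided, 100000 resamples) or, exactly, mouse labels (Python 3.11.15, numpy 2.4.6, scipy 1.17.1, pandas 2.3.3, matplotlib 3.10.9). Fits were tested on simulated data. The lowest chi-square per gene between 2 oocytes of one age was 2.49, so none was counted as a duplicate. Other settings tried were DESeq2 1.42.0, size factors of DESeq2 in edgeR, the likelihood ratio test of edgeR, filterByExpr or no filter, all groups of oocytes in one fit, sums or random effects per mouse label, each label left out, the replicate number as a block, cumulus and mitochondrial shares as covariates, 13 cumulus markers in place of 25, the plate as a covariate in the second set and, chosen after seeing the data, both covariates together and libraries of high share left out.

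Members and lists were chosen with earlier results of these data known. Genes named are the 3 oocyte markers and the most abundant oocyte and cumulus marker, the 10 largest rises and falls at a mean of at least 10 CPM, the 8 largest of each among genes more abundant in oocytes, the 6 most abundant called in each direction, in each of 27 lists the 4 called members with the lowest adjusted p (or the 2 most abundant where none was called), the 6 in each direction also called in the second set, and the 5 with the lowest p for unequal spread. Some of these are not reported here. Further called list members were named after their values were seen.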

Additional observations from a re-analysis of the deposited data

Results flagged for a closer look

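The labels with 4 to 10 oocytes, Young1 and Old3, were examined for a library far from the others in each of 6 library measures. Of these 12 examinations 1 found such a library, where chance gives about 1 in 20. Oocyte 035 of Young1 had a cumulus marker share of 0.262%, above the other 3 oocytes of its label, with a gap of 0.844 of the range of the label.

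The age contrast differed between the first and the second set for 61 named genes by the edgeR interaction test, with adjusted p between 0.00248 and 0.0498. Over all genes 5.25% differed. Most genes were named for a call or a large difference in the first set, and the interaction test uses those same oocytes. The count of 61 is therefore not read as a test against the share of all genes. Without Old1_2, only 4 of all genes tested differed between the sets. Log2 differences in the first set exceeded those in the second most for Cyp11a1 (4.21), Myo5c (2.84), Rpph1 (2.67), Il6 (2.66), Apob (2.35), Hist1h2ag (2.23), Gm24514 (1.82), Rn7sk (1.73), Gm26461 (1.73), Rn7s1 (1.68), Rn7s2 (1.68), Hist1h2bf (1.56), Chek2 (1.53), Hist2h2aa2 (1.502) and Hist2h2ac (1.44). Smaller excesses were found for Kdm5b (1.29), Txn1 (1.23), Gsr (1.19), Rps27l (1.15), Rps15a (1.02), Rps3 (0.997), Mrpl49 (0.89), Psma3 (0.75), Ddit3 (0.75), Cenpq (0.73), Mrps31 (0.72), Mrps16 (0.70), Cox5b (0.69), Esco2 (0.67), Cenpu (0.66), Oosp1 (0.65), Spc25 (0.62), Psmd7 (0.60), Esco1 (0.58), Ttk (0.54), Smarca5 (0.53), Mrps35 (0.53), Dazl (0.49), Psmc1 (0.48), Dnaja1 (0.47) and Canx (0.39). In the other direction, the first set lay below the second for Megf6 (-1.19), Socs7 (-1.08), Klf16 (-1.08), Tnks1bp1 (-1.07), Cyb561a3 (-1.06), Rab11fip4 (-1.06), Fam131a (-1.06), Espl1 (-0.998), Ulk1 (-0.84), Slc45a3 (-0.83), Xpc (-0.79), Tet3 (-0.79), Usp19 (-0.79), Kif5c (-0.73), Fzr1 (-0.71), Pabpc1l (-0.66), Zar1 (-0.56), Prdx5 (-0.47), Lman2 (-0.46) and Lsm14b (-0.38). What lies behind the differences between sets was not tested.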

How the results depend on the processing

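All 1707 called genes kept their sign under DESeq2, the likelihood ratio test, DESeq2 size factors, no filter, all groups in one fit, sums per label, voom, the replicate block and the mitochondrial covariate, and 1705 and 1706 did with both covariates and with the cumulus covariate. Without Old1_2, 1507 of the 1563 still tested kept it and 56 turned. The number called moved more. It was 2808 with DESeq2 (1486 higher, 1322 lower), 4884 with all groups in one fit (2866 and 2018), 0 with counts summed per label, 238 with voom (65 and 173), 34 with the cumulus covariate (13 and 21), 41 with the mitochondrial one (21 and 20), 265 with both (161 and 104), 4026 without libraries over 2% mitochondrial (1941 and 2085) and 664 without those over 0.2% cumulus markers (313 and 351). Leaving out 1 label gave 0 to 4141 calls, 0 to 2433 higher and 0 to 1708 lower. The causes were not tested.

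Young and old oocytes share the numbers 033 to 048, and same-numbered oocytes had correlations of deviations from -0.525 to 0.479, over 0.1 in 8 of 16 pairs, with 1 of 16 closest to its own number, so the numbers do not pair them. With the replicate block 101 genes were called (33 higher, 68 lower), 100 of them shared.

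Leaving out 1 label moved the total count difference between -82150 and 210840, genes detected between 15.9 and 542.3, mitochondrial share between -0.320 and 0.898 points, cumulus share between 0.00643 and 0.139, oocyte share between -0.786 and -0.0262, the top 50 share between -0.857 and 0.208, the distance between -0.0547 and 0.207 and genes of unequal spread between 0 and 0. Without libraries over 2% mitochondrial these were 542.3 genes, 0.423, -0.478 and 0.137 (genes detected, mitochondrial share, top 50 share and distance), with 241 genes of unequal spread. The libraries left out had the highest mitochondrial shares and the largest distances, so the values for mitochondrial share, distance and unequal spread are not read as tests. With all libraries, the count of genes of unequal spread was 0 at a mean of at least 50 CPM (395 at an unadjusted p under 0.05 by limma) and 0 with a pseudocount of 0.1 (755). The second set had 400 calls with DESeq2 and 186 with the plate as a covariate. The contrasts of the sets differed in 2005 genes with filterByExpr, 4 without Old1_2 and 3200 without libraries over 2% mitochondrial.

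Leaving out 1 label turned the sign for Dppa3 (-0.265 to 0.229), Pou5f1 (-0.365 to 0.00163), Gdf9 (-0.554 to 0.0973), Amh (-0.253 to 3.93), Hsd3b1 (-0.694 to 3.64), Fgd3 (-0.225 to 2.61), Impad1 (-0.845 to 2.45), Apob (-0.00150 to 2.85), Csf1r (-0.624 to 0.0623), mt-Co1 (-0.305 to 0.524), mt-Nd1 (-0.393 to 0.944), mt-Rnr2 (-0.618 to 1.23), mt-Rnr1 (-0.229 to 0.808) and Gm5514 (-0.899 to 0.0257), where values are the lowest and highest log2 difference. With the cumulus covariate it turned for Gja1 (-0.202), mt-Co1 (-0.170), mt-Nd1 (-0.0714), mt-Rnr2 (-0.191) and mt-Rnr1 (-0.0876). With the mitochondrial covariate it turned for mt-Co1 (-0.0721) and mt-Rnr2 (-0.0245). With both covariates it turned for Gja1 (-0.209), mt-Co1 (-0.0969), mt-Nd1 (-0.0573) and mt-Rnr2 (-0.0146). Without libraries over 2% mitochondrial it turned for Pecam1 (-0.0301). Of 108 called genes named, 107 were tested without Old1_2, and all of these lost the call, 5 of them with a change of sign. With the cumulus covariate 107 lost it. Voom shifted the median of all genes by -0.106 and leaving out Old1_2 by -0.103.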

Other observations

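Oocyte and cumulus libraries of one complex can be set side by side, as plain CPM of each library. Cyp11a1 was higher in the oocyte than in its own cumulus pool in 5 of 11 complexes of Old1_2, in 0 of 5 of Old3 and in 2 of 15 of young mice. In complex 033 of Old1_2 it was at 363 CPM in the oocyte (795.5 counts) and 9.28 CPM in the cumulus pool (10 counts), and in complex 034 at 29.5 and 0.951 CPM. Complex 037 had the opposite order, 2.94 CPM in the oocyte and 141 CPM in the cumulus pool. Sfrp4 behaved alike in complex 033, with 185 and 8.35 CPM, and exceeded its cumulus pool in 4 of 11 complexes of Old1_2, in 0 of 5 of Old3 and in 1 of 15 of young mice. Lhcgr did so in 6 of 11, 1 of 5 and 2 of 15, some of them on very few counts (1 against 0 in complex 043 of Old1_2). Amh did so in 2 of 11 of Old1_2 and in no other complex, while Gja1 and Hsd3b1 were higher in the cumulus pool in all 31 complexes compared.

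Il6 was higher in the oocyte than in its cumulus pool in 13 of 16 old and 6 of 15 young complexes. The highest old value, 952 CPM in oocyte 041 of Old1_2, and the 2 highest young values, 148 CPM and 109 CPM in oocytes 048 and 045 of Young2, belong to libraries that also had a mitochondrial share above 2%, and the cumulus pools of the same complexes held 3.16, 3.35 and 5.39 CPM. Rn7s1 was above its cumulus pool in 11 of 16 old and 2 of 15 young complexes. What these libraries share was not tested.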
